A study of Mus musculus with 6 samples.

Results

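The 10 genes described here encode the enzymes that make serine and those that move its carbon through folate. They were chosen by symbol from 39179 genes in the count table, and all 10 were found and passed the filter on low counts. Roles divide them: Phgdh, Psat1 and Psph make serine, Shmt1 and Mthfd1 work on folate in the cytosol, and Shmt2, Mthfd1l, Mthfd2, Mthfd2l and Aldh1l2 work on folate in mitochondria. No measured value enters that list of symbols, but the family was proposed with earlier results of the same comparison known, among them the lower Mthfd2. The values of the 10 genes between the groups are therefore given as a description, with no p-value. RNA came from mouse neural progenitor cells of the CD1 strain, dividing precursors of neurons and glia taken from the E13.5 cerebral cortex and then differentiated in flasks. Cells of 3 libraries stably overexpressed green fluorescent protein (GFP), and those of the other 3 the G392E variant of neuroserpin (G392E-NS), a neuronal serpin whose variant polymerises in the endoplasmic reticulum. The promoter that drives either construct, and whether a line is a clone or a pool, are not stated.

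Serine is built from an intermediate of glycolysis by PHGDH, PSAT1 and PSPH in turn. SHMT enzymes then pass one of its carbons to tetrahydrofolate, leaving glycine, and the MTHFD enzymes interconvert the folate-bound carbon between its oxidised and reduced forms. Mitochondria usually export this carbon as formate, which the cytosolic enzyme MTHFD1 takes up for the synthesis of purines, thymidylate and methionine. In the developing and adult brain, radial glia and astrocytes are known for high PHGDH. Several of these genes are known targets of ATF4, the transcription factor of the amino acid response.

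Total counts were 15507487 to 24835835 per library. Mitochondrially encoded genes took 1.90% to 2.26% of counts in the GFP libraries and 1.52% to 3.002% in G392E-NS libraries. Over all genes, 13775 were tested with edgeR's quasi-likelihood test. At an adjusted p under 0.05, 660 were called higher and 187 lower, so that 77.9% of calls were higher. Once trends on GC content and gene length had been removed, a setting added with the data in view, 1113 genes (8.16%) were called. Of those calls, 56.4% were higher. The median log2 fold change of G392E-NS over GFP across all genes was −0.00 in the main fit and −0.09 in that setting. Xist, the RNA of the inactive X chromosome, was at 1.41 to 1.56 CPM (counts scaled to a common library size, with TMM factors) in the GFP libraries and 1156 to 1846 CPM in G392E-NS libraries. The level of Xist, which is made in female cells, separated the groups completely, so any effect of sex cannot be told apart from that of the construct. None of the 10 genes lies on a sex chromosome. Nothing in the labels says whether replicates are separate cultures, so p-values measure no more than the spread among these libraries, and that may be technical.

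Of the 10 genes, 1 was called in the fit over all genes, Mthfd2, which was lower, and none was called higher. Over all genes tested, 6.15% were called in either direction, 4.79% higher and 1.36% lower. Groups did not overlap for Mthfd1, Mthfd2 and Mthfd2l, 3 of the 10, against 28.6% of all genes tested. Log2 fold changes of G392E-NS over GFP were above 0 for 5 genes and below 0 for 5, with a median of −0.05 beside −0.00 for all genes. All 3 serine synthesis genes lay above 0 (median 0.41), but without G392E-NS replicate 2 their median was 0.06 and Phgdh lay below 0. With the GC and length trends removed it was 0.25. Of the 5 mitochondrial folate genes, 4 lay below 0 (median −0.29). A gene that was not called may still differ between the groups.

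**Figure D1:**
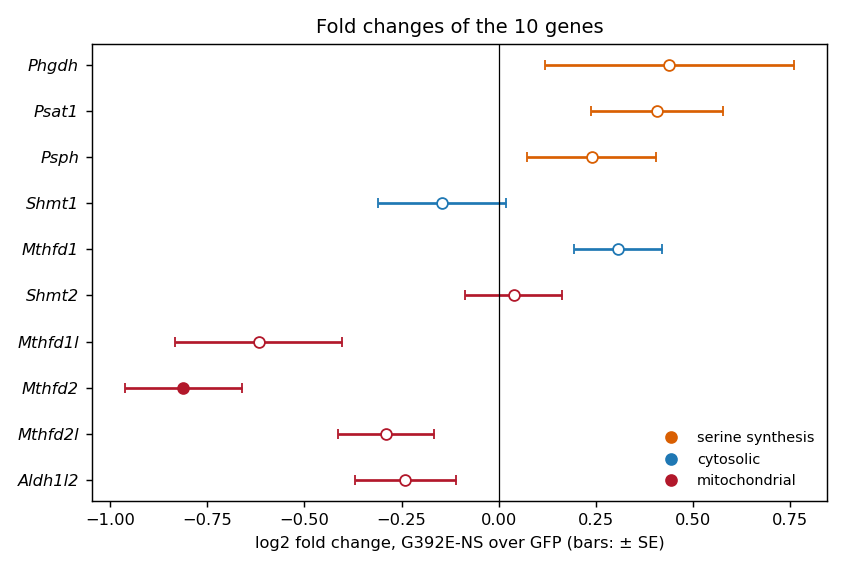
Log2 fold change of G392E-NS over GFP (x axis) for each of the 10 genes (y axis), with bars of 1 SE and colours for the role; filled points were called over all genes and open points were not. Mthfd2, at −0.81, is the single filled point, the 3 serine synthesis genes lie right of 0, and Mthfd1l, Mthfd2l and Aldh1l2 lie left of it.

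Promoter windows of RefSeq (build GRCm38.p6, 250 bases before to 50 after the annotated start) were found for 9 of the 10 genes, with 2 windows for Psat1, and not for Aldh1l2. Those of the mitochondrial dehydrogenase Mthfd2, of its isozyme Mthfd2l and of Phgdh are shown, because Mthfd2 had the largest difference between groups, Mthfd2l is its closest counterpart, and Phgdh had the largest spread between libraries. Each is printed 5′ to 3′ along the gene's strand, with matches to the motifs searched in capitals. Mthfd2 lies on the minus strand at chr6:83317555-83317854, Mthfd2l on the plus strand at chr5:90930946-90931245 and Phgdh on the minus strand at chr3:98339920-98340219.
Mthfd2: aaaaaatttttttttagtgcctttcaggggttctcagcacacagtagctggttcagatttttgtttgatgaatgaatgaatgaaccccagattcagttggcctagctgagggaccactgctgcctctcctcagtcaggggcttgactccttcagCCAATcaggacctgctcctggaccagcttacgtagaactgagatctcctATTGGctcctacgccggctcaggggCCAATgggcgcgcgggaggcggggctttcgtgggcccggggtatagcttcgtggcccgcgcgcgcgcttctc
Mthfd2l: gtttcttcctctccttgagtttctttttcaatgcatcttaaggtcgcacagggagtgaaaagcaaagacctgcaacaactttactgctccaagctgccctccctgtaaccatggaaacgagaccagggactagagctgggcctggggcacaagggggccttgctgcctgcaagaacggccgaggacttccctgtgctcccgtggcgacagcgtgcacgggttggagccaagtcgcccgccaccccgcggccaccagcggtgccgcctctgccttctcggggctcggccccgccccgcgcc
Phgdh: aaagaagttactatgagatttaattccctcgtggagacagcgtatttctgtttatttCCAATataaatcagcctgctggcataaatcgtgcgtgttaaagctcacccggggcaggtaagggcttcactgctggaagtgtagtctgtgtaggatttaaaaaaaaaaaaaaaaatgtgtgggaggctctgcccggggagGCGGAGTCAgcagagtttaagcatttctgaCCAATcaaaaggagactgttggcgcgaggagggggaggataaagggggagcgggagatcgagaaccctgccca

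Exact matches were sought on both strands. TGATGNAA, the composite element of C/EBP and ATF factors in the amino acid response, was in none of the 10 windows of these genes and in 3.97% of all 32851 windows. TGACGTCA, the cyclic AMP response element, was also in none (1.79% of all windows), and neither was the Myc E-box CACGTG (7.15%). The antioxidant response element TGACNNNGC was in 2 windows, those of Phgdh and Psph, and in 12.4% of all windows. In Phgdh the match is to the opposite strand, and the gene's own strand, as printed, reads GCGGAGTCA there, starting 53 bases before the gene start. The box CCAAT, searched after the sequences had been seen, was in windows of 6 genes and in 37.4% of all windows. Mthfd2 and 1 of the Psat1 windows had 3 matches each, Phgdh and Psph 2 each, Shmt1 and Mthfd1 1 each, and Mthfd2l, Mthfd1l and Shmt2 none. The windows of the isozymes Mthfd2 and Mthfd2l thus differ in these boxes, and no other motif searched was in either. These matches describe letters in a window and are not shown to be binding sites.

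The serine synthesis genes were the most abundant of the family for their length, together with Mthfd1 and Shmt2. Phgdh encodes the dehydrogenase that commits carbon to serine (ENSMUSG00000053398, GRCm38 chromosome 3, 98313170 to 98339990). It had 164, 142 and 196 CPM in GFP replicates 1 to 3 and 129, 353 and 199 CPM in G392E-NS replicates 1 to 3. G392E-NS replicate 2 was the highest of the 6 libraries and G392E-NS replicate 1 the lowest, so the groups overlapped. The log2 fold change was 0.44 (SE 0.32), −0.03 without G392E-NS replicate 2, 0.70 without G392E-NS replicate 1 and 0.25 with the GC and length trends removed. That library also had the highest summed level of 13 astrocyte markers, 18655 CPM against 11407 and 11814 CPM in the other G392E-NS libraries, and the largest share of mitochondrially encoded counts (3.002%). The part of either in the Phgdh value was not tested.

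Psat1 encodes the aminotransferase of the second step (ENSMUSG00000024640, chromosome 19, 15904678 to 15947337). Its levels were 291, 258 and 329 CPM in the GFP libraries and 316, 486 and 363 CPM in G392E-NS replicates 1 to 3. G392E-NS replicate 1 lay within the GFP range and the other G392E-NS libraries above it. The log2 fold change was 0.41 (SE 0.17). It was 0.22 without G392E-NS replicate 2.

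Psph encodes the phosphatase that releases serine (ENSMUSG00000029446, chromosome 5, 129765558 to 129787449). It had 55.1, 46.7 and 53.7 CPM in the GFP libraries and 47.0, 75.4 and 61.1 CPM in G392E-NS replicates 1 to 3, with a log2 fold change of 0.24 (SE 0.17). The order of the G392E-NS libraries was the same for the 3 serine genes, replicate 2 highest and replicate 1 lowest. The fold change of Psph was 0.06 without G392E-NS replicate 2, 0.38 without G392E-NS replicate 1 and 0.11 with the GC and length trends removed. Its exons share 452 bases with those of Cct6a on the opposite strand, which had 259 to 302 CPM in the GFP libraries and 241 to 284 CPM in G392E-NS libraries. Whether counting used strand is not given, so reads there cannot be assigned with certainty.

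**Figure D2:**
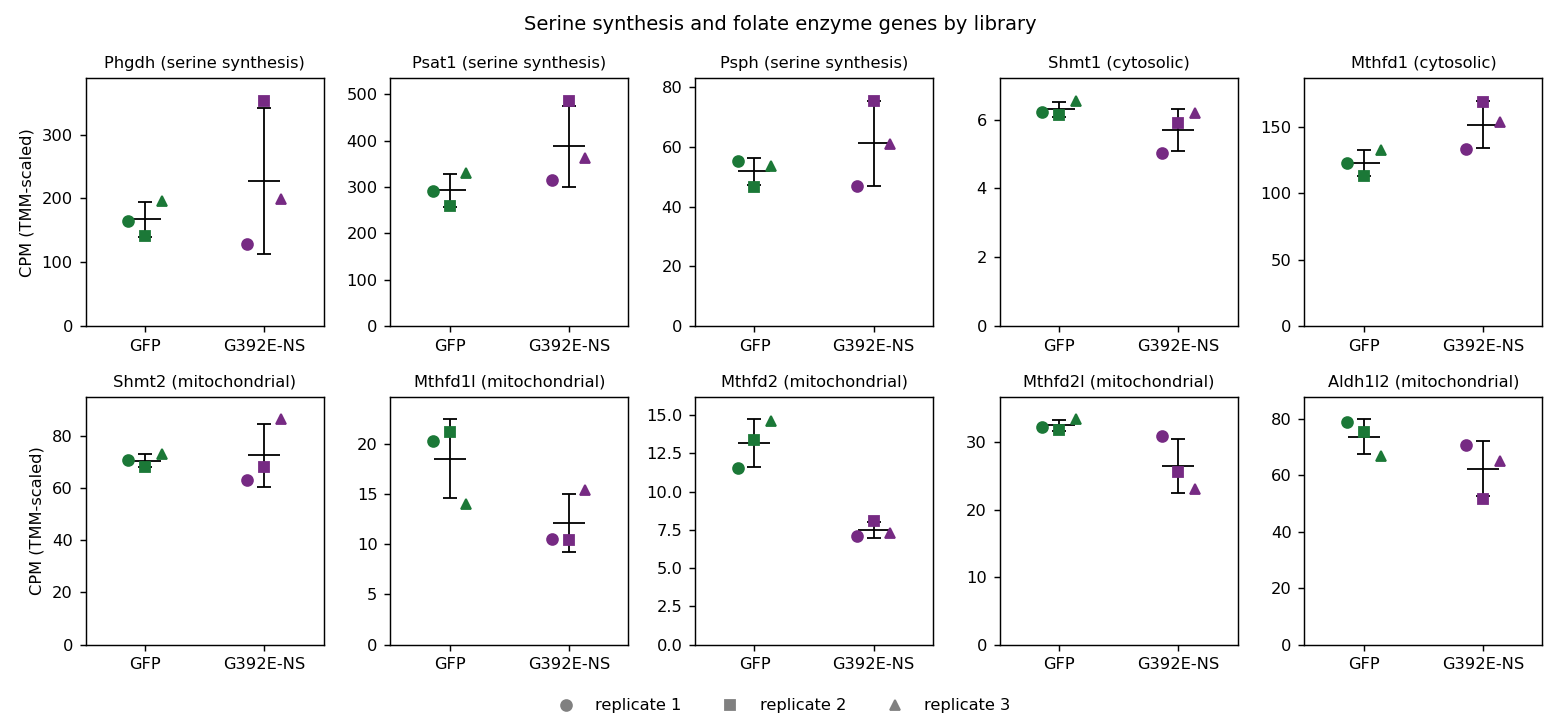
TMM-scaled CPM (y axis, from 0) of each gene in the 3 GFP (green) and 3 G392E-NS (purple) libraries, with a marker shape per replicate number; the dash and bars are the mean ± SD. Mthfd2 lies between 7.11 and 8.10 CPM in G392E-NS and between 11.5 and 14.6 CPM in GFP libraries, while Phgdh reaches 353 CPM in G392E-NS replicate 2 alone.

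Neither cytosolic gene was called, and their fold changes had opposite signs. Mthfd1 encodes the trifunctional cytosolic enzyme that joins formate to folate (ENSMUSG00000021048, chromosome 12, 76255298 to 76319803). It had 123, 113 and 132 CPM in the GFP libraries and 133, 169 and 153 CPM in G392E-NS replicates 1 to 3. The lowest G392E-NS library stood just above the highest GFP library, at 133 against 132 CPM. The log2 fold change was 0.31 (SE 0.11) and did not pass the threshold over all genes. It was 0.16 with the GC and length trends removed.

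Shmt1 encodes the cytosolic enzyme that splits serine into glycine and a folate-bound carbon (ENSMUSG00000020534, chromosome 11, 60788104 to 60811718). It was the least abundant of the family for its length, with 6.22, 6.12 and 6.54 CPM in the GFP libraries and 5.03, 5.90 and 6.20 CPM in G392E-NS replicates 1 to 3. The groups overlapped and the log2 fold change was −0.14 (SE 0.16). It was −0.08 without G392E-NS replicate 1 and −0.28 with the GC and length trends removed. Its exons share 184 bases with Smcr8 on the opposite strand, which had 57.5 to 62.9 CPM in the GFP libraries and 54.5 to 67.8 CPM in G392E-NS libraries. Reads in that stretch are uncertain in the same way.

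Mthfd2 held the largest difference of the family. It encodes a mitochondrial dehydrogenase and cyclohydrolase that is high in embryonic and dividing cells (ENSMUSG00000005667, chromosome 6, 83305691 to 83325908). GFP replicates 1 to 3 had 11.5, 13.4 and 14.6 CPM (200, 267 and 341 counts), and G392E-NS replicates 1 to 3 had 7.11, 8.10 and 7.30 CPM (171, 191 and 112 counts). Every G392E-NS library lay below every GFP library. The means were 13.2 ± 1.55 and 7.50 ± 0.525 CPM (SD, n = 3 each), a log2 fold change of −0.81 (SE 0.15), or 1.75-fold lower. It was called over all genes, and the call was lost without GFP replicate 1, 2 or 3, where the fold changes were −0.90, −0.80 and −0.73 and 1.71%, 1.82% and 3.93% of all genes were called.

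Since Mthfd2 is known from dividing cells, cell division genes are given beside it. The proliferation marker Mki67 had 8.70, 16.2 and 0.513 CPM in the GFP libraries and 1.91, 1.06 and 3.91 CPM in G392E-NS replicates 1 to 3. GFP replicate 3 thus had the lowest Mki67 of the 6 libraries and the highest Mthfd2. Of 10 cell division markers tested, none was called by edgeR, DESeq2 or limma-voom, 0 had an unadjusted p under 0.05 in edgeR, and 9 lay below 0 (median log2 fold change −1.03). Without GFP replicate 3, 11 markers were tested and 4 were called lower, with a median of −1.70. The median was −0.42 without GFP replicate 2. The summed level of the 11 markers listed was 67.3 to 134 CPM in the GFP libraries and 66.6 to 92.6 CPM in G392E-NS libraries. By that sum G392E-NS replicate 1 was the lowest library (66.6 CPM) and GFP replicate 3 the next (67.3 CPM). The part of cell division in the Mthfd2 values was not tested.

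Mthfd2l encodes the isozyme of MTHFD2 that prevails in adult tissues (ENSMUSG00000029376, chromosome 5, 90931117 to 91021368). It had 32.3, 31.8 and 33.4 CPM in the GFP libraries and 30.9, 25.6 and 23.1 CPM in G392E-NS replicates 1 to 3. The groups did not overlap, although G392E-NS replicate 1 was close to the GFP range. The log2 fold change was −0.29 (SE 0.12). It was not called with all libraries, but was without G392E-NS replicate 1, at −0.43, a fit in which 9.86% of all genes were called.

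Mthfd1l encodes the mitochondrial synthetase that releases formate (ENSMUSG00000040675, chromosome 10, 3973118 to 4167081). Its levels were 20.3, 21.2 and 13.99 CPM in the GFP libraries and 10.5, 10.4 and 15.4 CPM in G392E-NS replicates 1 to 3. GFP replicate 3 lay below G392E-NS replicate 3, so the groups overlapped. The log2 fold change of −0.62 (SE 0.22) was the second largest of the family in size. It was called lower with no low-count filter, at −0.63, where 6.81% of all genes were called.

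Shmt2 and Aldh1l2 complete the mitochondrial group. Shmt2, the mitochondrial counterpart of Shmt1 (ENSMUSG00000025403, chromosome 10, 127517123 to 127522444), had 70.8, 68.1 and 73.1 CPM in the GFP libraries and 63.2, 68.4 and 86.5 CPM in G392E-NS replicates 1 to 3. The G392E-NS libraries spanned the whole GFP range, and the log2 fold change was 0.04 (SE 0.12) with TMM factors and −0.02 when scaled by total counts. The median over all genes was −0.00 with TMM factors and −0.07 by total counts. Aldh1l2, which oxidises formyl-tetrahydrofolate in mitochondria (ENSMUSG00000020256, chromosome 10, 83487450 to 83534140), had 78.8, 75.1 and 66.8 CPM in the GFP libraries and 70.5, 51.5 and 64.8 CPM in G392E-NS replicates 1 to 3. The groups overlapped through G392E-NS replicate 1, and the log2 fold change was −0.24 (SE 0.13), or −0.11 without G392E-NS replicate 2. Its exons share 1056 bases with D10Wsu102e on the opposite strand, which had a log2 fold change of 0.01 (SE 0.10). Those of Shmt2 share 32 bases with Ndufa4l2, which had at most 7 counts in a library.

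Ratios between enzymes within a library do not depend on scaling between libraries. They were taken from counts per kb of exon, the combined exons of all transcripts. Mthfd1 over the sum of its mitochondrial counterparts Mthfd1l, Mthfd2 and Mthfd2l was 2.17, 1.90 and 2.41 in the GFP libraries and 3.32, 4.46 and 3.82 in G392E-NS replicates 1 to 3. Every G392E-NS library was above every GFP library, with a mean log2 difference of 0.84, beside a pooled SD of 0.19. Mthfd1 and all 3 of its counterparts contribute, since the former lay above 0 and the latter below.

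For the SHMT pair the cytosolic gene was the minor one in every library. Shmt1 over Shmt2 was 0.0703, 0.0720 and 0.0716 in the GFP libraries and 0.0637, 0.0690 and 0.0574 in G392E-NS replicates 1 to 3, a mean log2 difference of −0.17 with a pooled SD of 0.10. The ranges did not overlap, although G392E-NS replicate 2 (0.0690) was close to GFP replicate 1 (0.0703). The direction was opposite to that of the MTHFD enzymes. Shmt1 had only 95 to 153 counts per library. Neither Shmt1 nor Shmt2 was called, and the groups overlapped for each gene alone. Mthfd2 over Mthfd2l, a ratio chosen after the values were seen, was 0.681, 0.803 and 0.833 in the GFP libraries and 0.439, 0.604 and 0.603 in G392E-NS replicates 1 to 3. Mthfd2 was thus lower relative to its isozyme in each G392E-NS library than in any GFP library, by a mean log2 difference of −0.50 with a pooled SD of 0.22. These ratios belong to the comparison whose results were known and are given with no test.

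**Figure D3:**
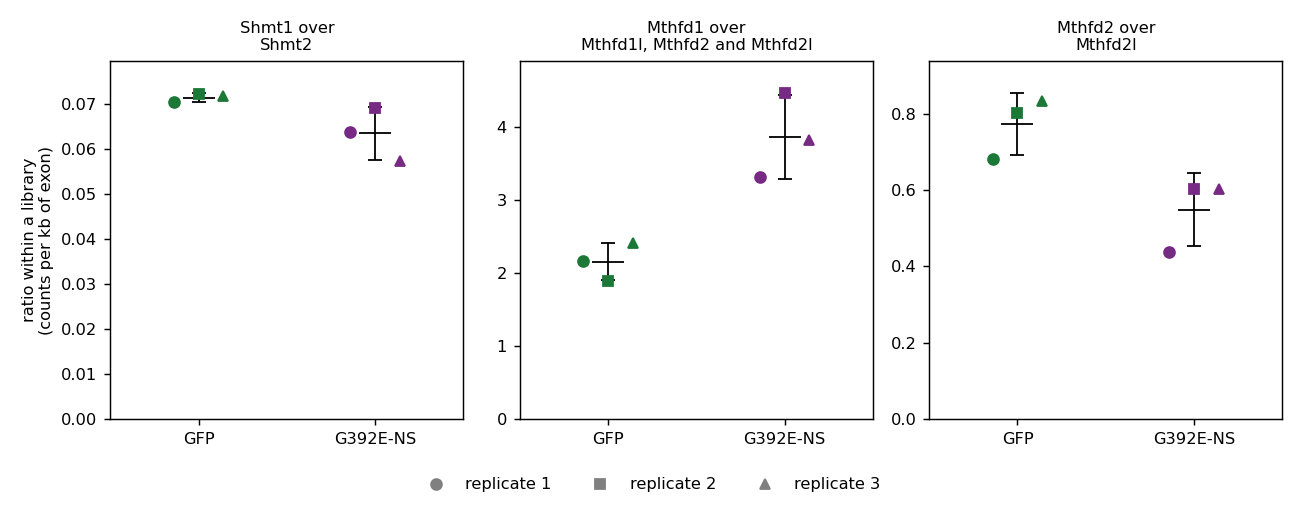
Ratio of counts per kb of exon within each library (y axis, from 0) for Shmt1 over Shmt2, Mthfd1 over its 3 mitochondrial counterparts and Mthfd2 over Mthfd2l, in GFP (green) and G392E-NS (purple) libraries; dash and bars are the mean ± SD. The middle ratio runs from 1.90 to 2.41 in the GFP libraries and from 3.32 to 4.46 in G392E-NS libraries.

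Per kb of exon, the 10 genes spanned a wide range of levels in the same cells. Psat1 and Phgdh were highest, with means over the 6 libraries of 80.0 and 79.3 CPM per kb, and did not differ beyond their spread. Mthfd1 (30.9 CPM per kb), Shmt2 (23.1), Psph (13.0) and Aldh1l2 (9.05) followed, each apart from the next in both groups. Mthfd2l had 4.44, Mthfd1l 3.45 and Mthfd2 2.96 CPM per kb. In GFP libraries the ranges of Mthfd1l and Mthfd2 overlapped, and these genes changed places when the longest transcript was used as the length. In G392E-NS libraries the lowest Mthfd2l and the highest Mthfd1l value were both 3.47 CPM per kb. Shmt1 was lowest, at 1.55 CPM per kb, and below Mthfd2 in each group without overlap. In the cytosol the abundant folate gene was thus Mthfd1, and in mitochondria Shmt2.

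**Figure D4:**
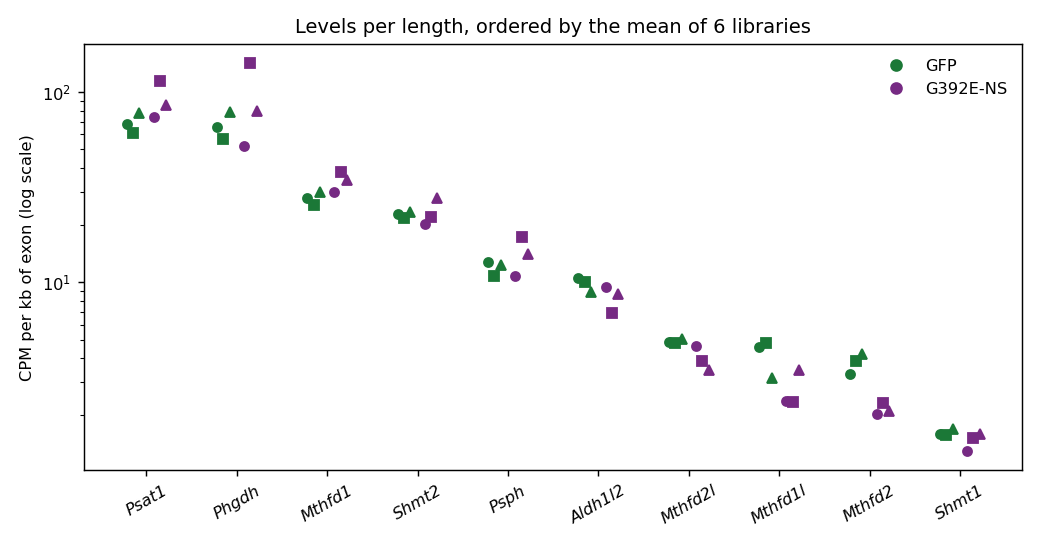
TMM-scaled CPM per kb of exon (y axis, log scale) of the 10 genes in order of their mean, with 1 point per library, GFP in green and G392E-NS in purple. Psat1 and Phgdh lie together at the top (means 80.0 and 79.3), and Shmt1 lies at the bottom (1.55).

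Genes that take up the products of these enzymes were described from fixed lists, which also were drawn up with earlier results known. The glycine cleavage system breaks glycine down in mitochondria and passes its carbon to folate. Of its 4 genes, 3 rose and 1 did not pass (median log2 fold change 0.67). Gldc, the decarboxylase (ENSMUSG00000024827, chromosome 19, 30098447 to 30175429), rose from 102, 89.8 and 108 CPM to 151, 256 and 159 CPM (log2 fold change 0.92, SE 0.20, adjusted p = 0.0367). Gcsh, the lipoyl carrier protein, rose by 0.72 (SE 0.12, adjusted p = 0.0149), and Amt, the aminomethyltransferase, by 0.62 (SE 0.13, adjusted p = 0.0368). Every G392E-NS library was above every GFP library for these 3 genes, and Dld, which other complexes share, had a fold change of 0.18. None of the 3 was called without GFP replicate 1 (adjusted p = 0.131, 0.0818 and 0.149 for Gldc, Gcsh and Amt) or without GFP replicate 2 (0.137, 0.0742 and 0.117), and 1, Gcsh, was called without GFP replicate 3. Without G392E-NS replicate 2 Amt had an adjusted p of 0.0565, and without G392E-NS replicate 3 Gldc had 0.0502.

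Of 10 other folate cycle enzymes tested, 1 rose and none fell (median 0.03). It was Aldh1l1, the cytosolic counterpart of Aldh1l2 and a marker of astrocytes (ENSMUSG00000030088, chromosome 6, 90486427 to 90600203). It had 15.2, 15.6 and 17.9 CPM in the GFP libraries and 25.1, 48.4 and 31.6 CPM in G392E-NS replicates 1 to 3, a 2.16-fold rise (log2 fold change 1.11, SE 0.23, adjusted p = 0.0302). Its G392E-NS libraries were all above GFP, whereas 2 of the 3 for Aldh1l2 were below the GFP range. The call was lost without GFP replicates 1, 2 and 3 (adjusted p = 0.126, 0.110 and 0.0657) and without G392E-NS replicate 3 (0.0594), and with all 6 libraries in limma-voom (0.0523). The thymidylate synthase gene Tyms, chosen after its values were seen, had 10.6, 9.89 and 9.71 CPM in the GFP libraries and 7.90, 6.57 and 7.30 CPM in G392E-NS libraries, and did not pass (log2 fold change −0.47, SE 0.15, adjusted p = 0.108).

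Transport and the methionine branch held 3 calls, all higher. Of 8 transporters of serine and glycine tested, 1 rose (median 0.11), the glycine transporter gene Slc6a9, from 55.6, 47.6 and 65.0 to 84.8, 133 and 90.4 CPM (log2 fold change 0.87, SE 0.19, adjusted p = 0.0365). Of 9 genes of the methionine cycle and transsulfuration, 2 rose (median 0.10). Cbs, which condenses serine with homocysteine (ENSMUSG00000024039, chromosome 17, 31608894 to 31637238), rose 2.17-fold from 27.9, 18.3 and 30.5 to 57.1, 63.1 and 46.4 CPM (adjusted p = 0.0175). Ahcyl1, which resembles the methionine cycle enzyme AHCY but is known as a regulator of inositol trisphosphate receptors, rose by 0.68 (SE 0.13, adjusted p = 0.0250). Cbs lost its call without GFP replicate 1 (adjusted p = 0.0714). Slc6a9 and Ahcyl1 lost theirs without GFP replicate 1 (adjusted p = 0.137 and 0.104), GFP replicate 2 (0.135 and 0.117) or GFP replicate 3 (0.0533 and 0.0787), and Slc6a9 also without G392E-NS replicate 3 (0.0571).

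None of 5 genes of folate uptake and retention was called by edgeR, DESeq2 or limma-voom (median 0.11), and 2 had an unadjusted p under 0.05 in edgeR. With the GC and length trends removed 1 of them was called lower, the folate transporter gene Slc46a1, named after its values were seen. The nearest was Ggh, which trims folate polyglutamates (log2 fold change 0.31, SE 0.12, adjusted p = 0.177). None of 8 other genes that use serine was called by these tools either (median 0.17, and 2 with an unadjusted p under 0.05), with Ptdss1, a phosphatidylserine synthase gene, nearest (0.36, SE 0.10, adjusted p = 0.0909). Those medians stand beside −0.00 over all genes tested.

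**Figure D5:**
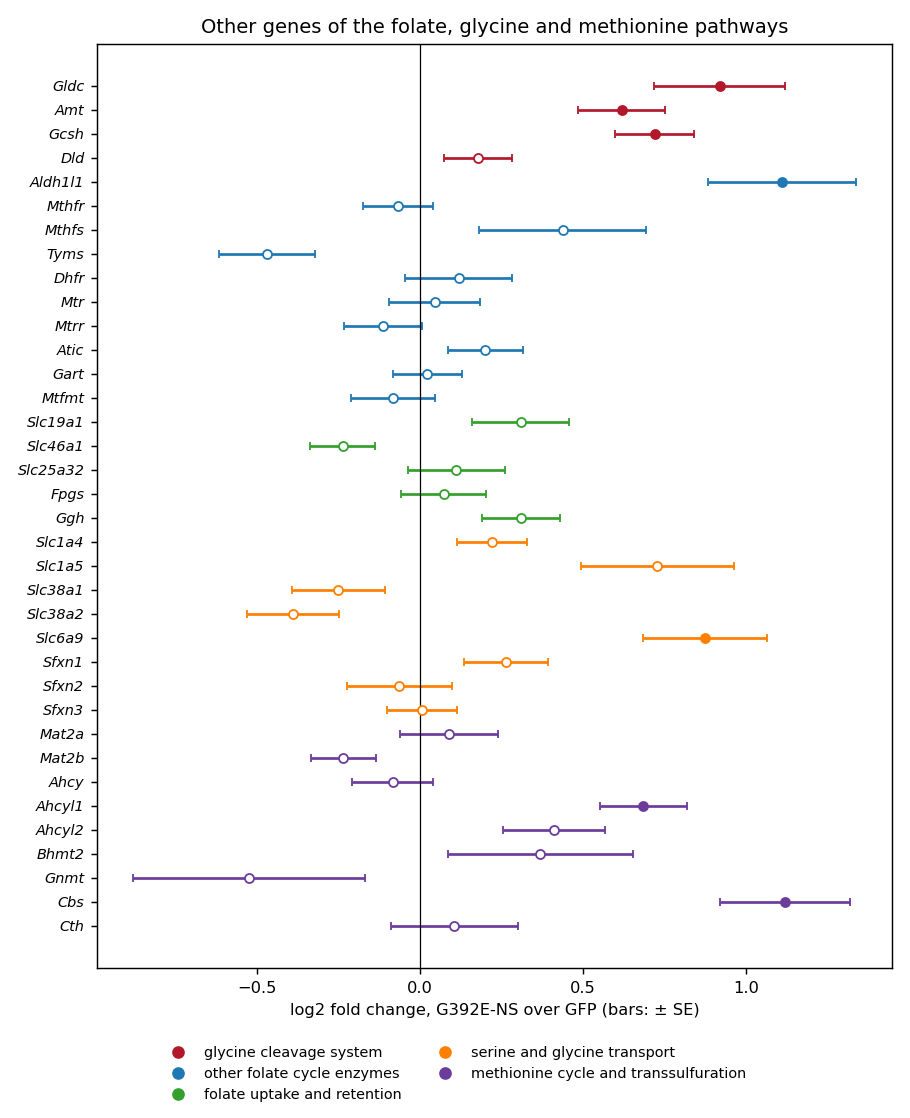
Log2 fold change of G392E-NS over GFP (x axis) with bars of 1 SE for each tested gene of 5 related lists (y axis, coloured by list); filled points were called over all genes. The 7 filled points all lie right of 0, and 3 of them belong to the glycine cleavage system.

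ATF4 drives serine synthesis genes, Mthfd2, Shmt2 and Aldh1l2 together with other genes of the amino acid response. Of 27 such other genes tested, ATF4 included, 1 rose and 2 fell (median −0.15), beside 4.79% higher and 1.36% lower over all genes. Of the 27, 9 lay above 0 and 18 below, beside 6790 above and 6985 below over all genes. An unadjusted p under 0.05 in edgeR was found for 11 of the 27. Groups did not overlap for 13 of them, against 28.6% of all genes tested. DESeq2 called 2 higher and 4 lower of 28, and edgeR with no low-count filter 2 and 5 of 28. With the GC and length trends removed edgeR called 0 and 4 (median −0.28). Over all genes DESeq2 called 1098 higher and 352 lower of 16441 with an adjusted p. The fit with no filter called 6.81% of all genes. That with the trends removed called 8.16%, with a median of −0.09. Trib3, a pseudokinase of this response, had 2.13, 2.51 and 1.75 CPM in the GFP libraries and 0.499, 0.382 and 1.17 CPM in G392E-NS libraries (log2 fold change −1.71, SE 0.41, adjusted p = 0.0486). Nupr1, a stress-induced chromatin protein gene, fell by 1.71 (SE 0.36, adjusted p = 0.0309), and Ddit4, an inhibitor of mTOR signalling, rose by 0.39 (SE 0.09, adjusted p = 0.0436). Ddit4 lost its call in 10 of 15 alternatives, among them limma-voom (adjusted p = 0.0527), total counts (0.0765), no low-count filter (0.0543) and the GC and length trends removed (0.139, with a fold change of 0.18). Atf4 itself, chosen after its values were seen, had 166, 136 and 183 CPM in the GFP libraries and 125, 154 and 130 CPM in G392E-NS libraries, and was not called (log2 fold change −0.25, SE 0.13, adjusted p = 0.321). None of the 27 was called without GFP replicate 1, 2 or 3, and 3 were higher and 2 lower without G392E-NS replicate 1. The last of these fits called 9.86% of all genes. Without G392E-NS replicate 2 only Nupr1 was called. Trib3 was not called without G392E-NS replicate 1 (adjusted p = 0.0896), and neither Nupr1 nor Ddit4 was without G392E-NS replicate 3 (0.0836 and 0.0715). None of 11 upstream regulators was called by edgeR, DESeq2 or limma-voom (median 0.03), 0 had an unadjusted p under 0.05 in edgeR, and Myc was nearest (0.34, SE 0.18, adjusted p = 0.303).

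Markers of cell types moved with the groups. Of 13 astrocyte markers, 6 rose and none fell (median 1.36), among them Fgfr3, which rose from 116 to 157 CPM in GFP to 331 to 416 CPM in G392E-NS libraries (adjusted p = 0.00139), Aldoc (3.98-fold, adjusted p = 0.0185), Gjb6 (12.8-fold, adjusted p = 0.00485) and Ntsr2 (3.46-fold, adjusted p = 0.0265). The summed level of the 13 markers was 4752 to 6992 CPM in the GFP libraries and 11407 to 18655 CPM in G392E-NS libraries. Gjb6 had few counts, 6, 6 and 21 in GFP replicates 1 to 3 and 148, 238 and 67 in G392E-NS replicates 1 to 3. With GFP replicate 2 left out 2 astrocyte markers were called, and 4 with GFP replicate 1 or GFP replicate 3 left out. DESeq2 called 9, and edgeR with no low-count filter 11. Ntsr2 was not called by limma-voom. Phgdh, Gldc, Slc6a9 and Aldh1l1 had the same highest library as that sum, G392E-NS replicate 2. This was not particular to them, since Psat1, Psph, Mthfd1, Gcsh, Amt, Cbs, Ahcyl1, Ggh and Ptdss1 were also highest there. Shmt2 and Ddit4 were highest in G392E-NS replicate 3, and Myc in G392E-NS replicate 1. In these bulk libraries more cells of a type and more RNA per cell cannot be told apart, and the part of astrocyte content in the serine, glycine and folate values was not tested.

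Each of the other marker lists held at most 2 calls. Progenitor markers summed to 4198 to 4825 CPM in the GFP libraries and 3973 to 4998 CPM in G392E-NS libraries, and 1 of 9, Nes, fell (log2 fold change −0.77, adjusted p = 0.0480). Of 9 neuronal markers tested, 1 fell, the RNA-binding protein gene Elavl4 (−0.70, adjusted p = 0.0228), with sums of 3431 to 3961 and 3164 to 4387 CPM. Without GFP replicate 3 none of the neuronal markers was called lower and 2 were called higher, Syt1 and Tubb3, and DESeq2 called 1 higher, Syt1, beside the fall of Elavl4. Both were named after their values were seen. Of 8 oligodendrocyte lineage markers, Pdgfra and Mog rose by 1.12 and 2.25 (adjusted p = 0.0435 and 0.0295), with sums of 3220 to 3901 and 2762 to 5051 CPM. Mog was near the floor, with 4, 6 and 3 counts in GFP replicates 1 to 3 and 26, 33 and 9 in G392E-NS replicates 1 to 3. Nes, Elavl4, Pdgfra and Mog each lost their call without GFP replicate 1, 2 or 3 or G392E-NS replicate 2, and Nes and Elavl4 also without G392E-NS replicate 3 (adjusted p = 0.0510 to 0.172). Nes was also lost with upper-quartile factors (0.0509), and Pdgfra with total counts (0.0540). The microglial marker Csf1r was at 0 counts in every library. Mesenchymal markers summed to at most 0.214 CPM in the GFP libraries and 3.69 CPM in G392E-NS libraries, with Lum and Dcn at 0 throughout and 1 gene called, Twist1, which had no counts in the GFP libraries and 1.41, 1.91 and 3.26 CPM in G392E-NS libraries.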

How the data were processed

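The file deposited by the authors holds raw counts: each value is a whole number for 1 Ensembl gene in 1 library, with no normalisation. Per the submitters' processing notes the tools were HTSeq 0.6.1, TopHat2 2.0.12, DESeq2 1.4.5 and R 3.2.2, and the build GRCm38, with no role for each. For annotation release, strand setting and filters, nothing is given in the sources used here. GENCODE M21 (GRCm38) paired 37607 of 39179 IDs with symbols. Groups and replicate numbers came from the labels. Replicate pairs differed by a chi-square per degree of freedom of 8.02 to 56.4, so none was a duplicate.

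Genes passing filterByExpr (13775, with 99.9% of counts) were tested with edgeR 4.0.16 in R 4.3.3, using TMM factors, a quasi-likelihood test with no covariate, and Benjamini-Hochberg adjustment over all genes tested. The adjusted p threshold was 0.05. Each standard error was derived from the F statistic and fold change. The tests were also run on simulated counts, drawn independently from the mean levels, depths and dispersions of these libraries. Such draws hold no sex difference and no technical replicates, so they cannot show how the tests behave with either. The 10 genes and all gene lists were chosen with earlier results of these data known. Named from each other list are up to 4 called genes with the largest change, or the one with the smallest p. Alternatives were DESeq2 1.42.0, limma-voom (limma 3.58.1), scaling by total counts, RLE or upper quartiles, other low-count filters, a replicate block, leaving out each library, and removal of GC and length trends (added after seeing the data). The encoded proteins, whose comparison was planned, were not analysed here.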

Additional observations from a re-analysis of the deposited data

How the results depend on the processing

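With all 6 libraries 1 of the 10 genes was called lower and 0 higher by edgeR. The lower calls numbered 2 with no low-count filter (Mthfd2 and Mthfd1l), 0 with the replicate block, and 0 to 2 when a library was left out. No gene was called higher under any of the 15 alternatives, DESeq2 and limma-voom among them. The fold change of Phgdh was −0.025 when G392E-NS replicate 2 was left out and 0.70 when replicate 1 of that group was. That of Shmt2 was −0.022 by total counts, −0.10 without G392E-NS replicate 3, 0.11 when replicate 1 of that group was left out, and −0.13 with trends on GC content and length removed. The median over all genes was itself −0.067 by total counts and −0.086 with these trends removed. The other 8 genes kept their direction in all 15 alternatives, and Mthfd2 ranged from −0.95 to −0.73. The difference in the log2 ratio of Mthfd1 to its mitochondrial counterparts was 0.73 to 0.94 with a library left out, that of Shmt1 to Shmt2 −0.24 to −0.11, and that of Mthfd2 to Mthfd2l −0.59 to −0.35. With the longest transcript as length, levels were 130 CPM per kb for Psat1, 104 for Phgdh, 42.4 for Mthfd1, 31.3 for Shmt2 and 19.6 for Psph. They were 11.3 for Aldh1l2, 7.11 for Mthfd2l, 4.96 for Mthfd2, 4.15 for Mthfd1l and 2.10 for Shmt1.

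Libraries with the same replicate number had correlations of their deviations from the group means of 0.03, −0.38 and −0.25. Higher values were found across numbers, 0.35 for GFP replicate 2 with G392E-NS replicate 3 and 0.31 for GFP replicate 3 with G392E-NS replicate 2. Whether those libraries share a batch is not labelled and was not tested. Deviations within a group cancel out, so these correlations depend on each other and cannot decide whether the numbers pair libraries. With the number as a block, all calls numbered 217 higher and 50 lower, and Mthfd2 had −0.80. Calls over all genes numbered 628 higher and 485 lower with the trends removed, 1098 and 352 by DESeq2, and 1205 and 374 if no low-count filter was used. Leaving out GFP replicate 1, 2 or 3 gave 196, 207 or 382 higher and 46, 51 or 167 lower, leaving out G392E-NS replicate 2 or 3 gave 428 or 457 higher and 85 or 133 lower, and leaving out G392E-NS replicate 1 gave 1373 in all. Among the lists, the median was −0.01 for the methionine branch and −0.01 for other folate enzymes when G392E-NS replicate 2 was left out. With the trends removed it was −0.04 for transport and −0.07 for upstream regulators. The median over all genes was −0.00 without G392E-NS replicate 2 and −0.09 with the trends removed. The cause of these shifts was not tested.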
